A study of Homo sapiens with 4 samples.

Results

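Molecular chaperones of the cytosol and of mitochondria were examined by RNA sequencing in cultured cells that the labels assign to human lung squamous cell carcinoma. The 44 genes were chosen by name, from what they are known to do: the heat shock factors, HSP90 and HSP70 proteins, their J-domain and BAG partners, small heat shock proteins, the mitochondrial chaperones and subunits of the chaperonin TRiC. They occupy 45 of the 58735 rows of the deposited table, because HSPA14 has 2 identifiers, and 44 of these rows reached the level needed for a test (2 or more libraries with an FPKM of 1 or above; FPKM is the number of fragments scaled to gene length and library size). CRYAB, a small heat shock protein of lens and muscle, did not, with 1 to 14 reads per library. HSPB11, HSPA13 and DNAJB12 belong to the list by name or family, although the first is known as a protein of intraflagellar transport and the other 2 as proteins of the endoplasmic reticulum.

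The comparison set 2 libraries labelled 30 Gy against 2 labelled 0 Gy, where gray (Gy) measures the radiation energy taken up. The design text names SK-MES-1, an established line of lung squamous carcinoma, and SK-MES-1-RR, which it describes as resistant to radiotherapy. Which line gave which library, how the dose was given and when RNA was taken are not stated, so the groups are called by their dose and a difference between doses cannot be told apart from a difference between lines. Whether replicates came from different cultures is not stated, and the spread behind each p-value may therefore be technical. In bulk RNA, fewer cells of a type and less RNA per cell cannot be told apart. Whole reads recovered from the FPKM came to 15920861 to 17261121 per library. Of 8 squamous markers, KRT5, KRT6A and DSG3 were at 0 in all 4 libraries, while TP63 stood at 3.19 to 4.14 FPKM and PKP1 at 14.8 to 18.3. The others were below the filter: SOX2 at 0.0936 to 0.548 FPKM, KRT14 at 0 to 0.110 and TRIM29 at 0.0490 to 0.180. The summed level of 5 leukocyte markers was 0.405 to 0.715 FPKM and of 3 endothelial markers 0.0794 to 0.121. Of 6 fibroblast markers, COL1A1 (62.1 to 76.3 FPKM) made up nearly all of a sum of 62.8 and 63.2 at 0 Gy and 78.7 and 72.4 at 30 Gy, and DCN was at 0. PDGFRB was 0.685 ± 0.0460 FPKM in the 0 Gy libraries and 1.48 ± 0.0347 in the 30 Gy libraries (adjusted p = 0.0535), and LUM, below the filter, was 0.0584 ± 0.0556 and 1.11 ± 0.298. The summed level of 6 epithelial markers was 333 to 402 FPKM, in which KRT7 was higher at 30 Gy (211 ± 14.2 against 95.8 ± 0.615) and KRT19 lower (88.4 ± 6.18 against 162 ± 4.27; SD, n = 2 each), both past the threshold. Keratins made up most of the epithelial sum. CDH1, also an epithelial marker, was below the filter at 0 to 0.0667 FPKM, and EPCAM stood at 3.42 to 5.91. The part of all these markers in the results was not tested.

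Chaperones bind unfolded or partly folded proteins and release them in cycles driven by ATP. HSP70 proteins take up a client handed over by a J-domain protein and let it go when a nucleotide exchange factor, such as a BAG or HSP110 protein, opens them. HSP90 acts later, on clients such as kinases and steroid receptors, with cochaperones that set the pace of its cycle. Heat and other stress that unfolds proteins release the transcription factor HSF1 from chaperones, and HSF1 then binds heat shock elements, repeats of the letters GAA in alternating orientation, in front of chaperone genes. Tumour cells are known to rely on HSP90 and HSF1 for growth and for surviving stress.

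At 30 Gy, 2 chaperone genes were higher and 8 were lower at an adjusted p under 0.05 (limma on log2(FPKM + 1), Benjamini-Hochberg over 13379 genes). The 2 that rose were DNAJB1, the main J-domain partner of stress-inducible HSP70, and CCT5, a subunit of TRiC. The 8 that fell were HSP90AA1, the stress-inducible HSP90, its activator AHSA1, the J-domain genes DNAJA4, DNAJB4, DNAJC2 and DNAJA3, the exchange factor BAG5, and the heat shock factor HSF2. Among all tested genes 19.8% were called, against 22.7% (10 of 44) of the chaperone rows, which is close to that background. By direction, 4.55% of the chaperone rows rose, against 10.8% of all genes, and 18.2% fell, against 9.06%. The median log2 change of the 44 rows was -0.012, beside -0.00068 over all genes, and the median absolute change was 0.17, beside 0.20. None of the 10 changed 2-fold or more, beside 347 of the 2654 genes called among all tested genes. The changes ran from -0.49 to 0.34 on the log2 scale. With any 1 of the 4 libraries left out, 0 of the 10 passed in limma, and 0 passed when every gene above 0 was tested. Over all genes the calls numbered 2654 with 4 libraries, 0 without either 0 Gy library, 898 without the first 30 Gy library and 862 without the second, which bears on every count of calls given here. At an unadjusted p under 0.05, 20 of the 44 rows passed with all libraries, beside 5049 of all 13379 tested genes. With voom on the recovered reads, chosen after the data were seen, 6 chaperone rows rose and 11 fell, beside 31.3% of all genes called. Beside the 10 given here, voom added HSF1, HSPA8, CCT2 and DNAJB2 to the rises and HSPD1, BAG2 and DNAJC7 to the falls.

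**Figure D1:**
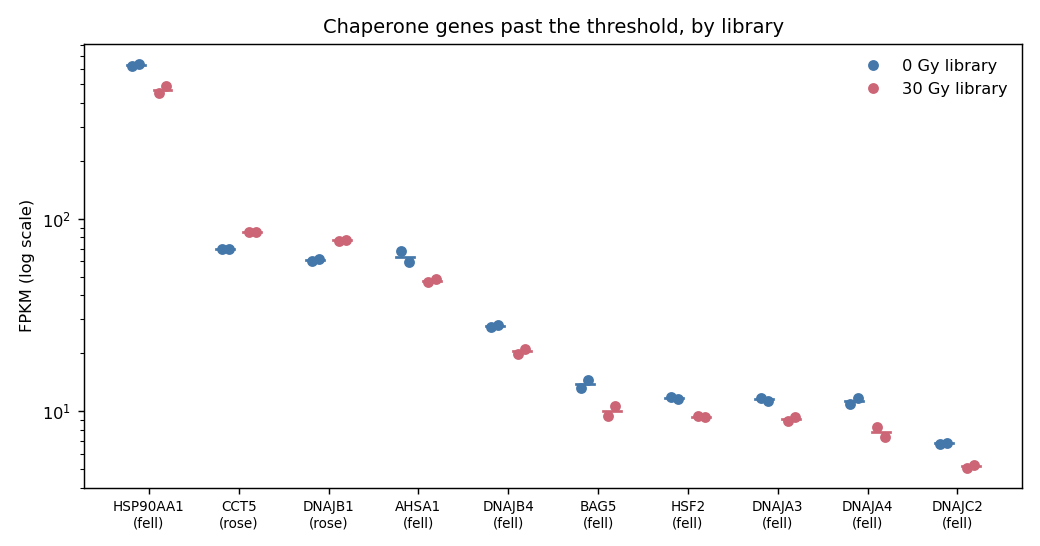
FPKM on a log axis of the 10 chaperone genes past the threshold, with a point for each library and a line at the mean of each dose, ordered by mean level. The 30 Gy points lie below the 0 Gy points for the 8 genes that fell and above them for CCT5 and DNAJB1, with no overlap in any gene. These genes were picked by a test on the same libraries, so the separation is no further evidence. Of all tested genes, 65.2% did not overlap.

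Heat shock elements are shown first, since HSF1 acts through them. The windows run from 250 bases before to 50 bases after each RefSeq start site (GRCh38.p14), and 39 of the 44 names matched at least 1 of them. The names without a window were CRYAB, HSF1, HSPA14, HSPB11 and STUB1. The pattern searched had 3 units, GAANNTTCNNGAA, and on the other strand TTCNNGAANNTTC. It occurred in 6 of 39 chaperone genes (15.4%) and in 0.608% of all 27305 genes with a window. The shorter pattern of 2 units, GAANNTTC or TTCNNGAA, which is contained in the longer one, occurred in 19 of the 39 and in 16.2% of all genes. In the sequences, capitals mark the matches of the 3-unit pattern. The whole 300-base windows of the HSP90 pair are given as an example. The ratio of the pair did not overlap between doses, which was true of every pair examined. Taken singly, 65.2% of all tested genes did not overlap either, and no such share was computed for ratios.

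HSP90AA1, chr14:102086995-102087294, minus strand: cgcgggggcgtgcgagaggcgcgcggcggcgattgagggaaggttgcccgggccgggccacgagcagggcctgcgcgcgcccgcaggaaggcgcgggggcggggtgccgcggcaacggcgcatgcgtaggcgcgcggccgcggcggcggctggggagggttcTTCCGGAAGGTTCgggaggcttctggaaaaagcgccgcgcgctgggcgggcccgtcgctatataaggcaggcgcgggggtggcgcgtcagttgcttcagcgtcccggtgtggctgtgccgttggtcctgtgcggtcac
HSP90AB1, chr6:44247693-44247992, plus strand: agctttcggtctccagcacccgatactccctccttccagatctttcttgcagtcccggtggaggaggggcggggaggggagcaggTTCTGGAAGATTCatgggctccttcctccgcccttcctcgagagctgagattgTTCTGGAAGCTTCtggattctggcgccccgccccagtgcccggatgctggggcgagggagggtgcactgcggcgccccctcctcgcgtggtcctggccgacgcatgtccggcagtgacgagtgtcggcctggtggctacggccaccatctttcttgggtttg

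The match of HSP90AA1 begins 88 bases before the start site, and HSP90AB1 has 2 matches. Shorter stretches follow for the other 4 genes, to show the same letters in the windows of genes with other roles; the match of DNAJA1 begins 3 bases after its start site. In HSPD1, the mitochondrial chaperonin, the 2 matches overlap.

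HSPA8, chr11:123062159-123062386, minus strand: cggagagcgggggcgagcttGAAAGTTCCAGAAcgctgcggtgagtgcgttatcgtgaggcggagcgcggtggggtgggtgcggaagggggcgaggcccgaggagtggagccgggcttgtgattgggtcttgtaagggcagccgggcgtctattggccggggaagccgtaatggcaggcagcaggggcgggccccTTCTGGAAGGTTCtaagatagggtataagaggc
HSPD1, chr2:197500048-197500090, minus strand: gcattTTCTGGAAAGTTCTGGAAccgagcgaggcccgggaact
DNAJA1, chr9:33025256-33025308, plus strand: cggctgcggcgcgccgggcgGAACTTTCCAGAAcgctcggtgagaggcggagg
DNAJB6, chr7:157336853-157336905, plus strand: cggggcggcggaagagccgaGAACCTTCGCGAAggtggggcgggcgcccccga

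Of these 6 genes, HSP90AA1 fell and the other 5 did not pass, with log2 changes of -0.25 (HSPD1), 0.069 (HSP90AB1), 0.11 (DNAJB6), 0.16 (DNAJA1) and 0.18 (HSPA8). Apart from HSP90AA1, no gene that passed has a match of the 3-unit pattern in its windows, DNAJB1 and CCT5 included. The same holds for the stress-inducible pair HSPA1A and HSPA1B, which did not pass. A match is a run of letters and not a measured binding site.

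The changes of the 2 heat shock factors had opposite signs, and 1 of them passed. HSF1, the main factor of the heat response, stood at 25.9 and 27.7 FPKM at 0 Gy and at 32.7 and 30.6 at 30 Gy. The 30 Gy libraries were the higher ones without overlap, but the log2 change of 0.23 (95% interval 0.052 to 0.41) did not pass (adjusted p = 0.0776). HSF1 passed with voom on the recovered reads (0.25, adjusted p = 0.0185). DGAT1, which overlaps 2.62% of the exonic bases of HSF1 on the opposite strand, rose, and whether reads were counted by strand is not given in the sources used here. HSF2 (ENSG00000025156, 6:122399546-122433119, hg38, plus strand), a factor that pairs with HSF1 and acts in development, stood at 11.8 and 11.5 FPKM at 0 Gy and at 9.41 and 9.33 at 30 Gy. Both 30 Gy values lay below both 0 Gy values, from 401 to 555 reads per library. HSF2 fell by 0.29 ± 0.064 (SE, log2; adjusted p = 0.0379).

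Of the 2 cytosolic forms of HSP90, the inducible one fell and the constitutive one did not pass. HSP90AA1 (ENSG00000080824, 14:102080738-102139699, minus strand) stood at 621 and 637 FPKM at 0 Gy and at 450 and 487 at 30 Gy. It ranked number 33 of 13379 tested genes by mean FPKM, and its values rest on 37716 to 56818 reads per library. HSP90AA1 fell 1.34-fold, a log2 change of -0.42 ± 0.068 (SE; adjusted p = 0.0186). HSP90AB1 (ENSG00000096384, 6:44246166-44253888, plus strand), the constitutive form, was the most abundant chaperone, at 719 and 707 FPKM at 0 Gy and 740 and 756 at 30 Gy. Its log2 change of 0.069 (95% interval -0.084 to 0.22) did not pass (adjusted p = 0.449). Quantile normalization moved it to 0.20, which did not pass either (adjusted p = 0.0657). The ratio of HSP90AA1 to HSP90AB1 within a library, which no scaling factor applied to a whole library can move, was 0.864 and 0.901 at 0 Gy and 0.608 and 0.645 at 30 Gy. Its log2 difference was -0.49, where libraries of the same dose differed with an SD of 0.052. The ratios are given as values and were not tested; exact permutation of 4 libraries allows no two-sided p below 0.333.

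Among the HSP90 cochaperones, AHSA1 (ENSG00000100591, 14:77457870-77469474, plus strand), which stimulates the ATPase of HSP90, stood at 67.6 and 59.4 FPKM at 0 Gy and at 46.8 and 48.5 at 30 Gy. The 0 Gy libraries differed from each other by more than the 30 Gy libraries did, and the groups did not overlap. AHSA1 fell by 0.40 ± 0.081 (SE, log2; adjusted p = 0.0308). STIP1, also named HOP, which passes clients from HSP70 to HSP90, stood at 70.3 and 69.5 FPKM and at 63.6 and 66.7. PTGES3, the cochaperone p23, which slows the last step of the cycle, stood at 127.6 and 131 FPKM and at 133 and 141. Neither passed (adjusted p = 0.276 and 0.393). The summed level of the 5 genes of HSP90 and its cochaperones was 1605 ± 1.63 FPKM in the 0 Gy libraries and 1467 ± 46.5 in the 30 Gy libraries (SD, n = 2 each), of which the HSP90 pair made up most.

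**Figure D2:**
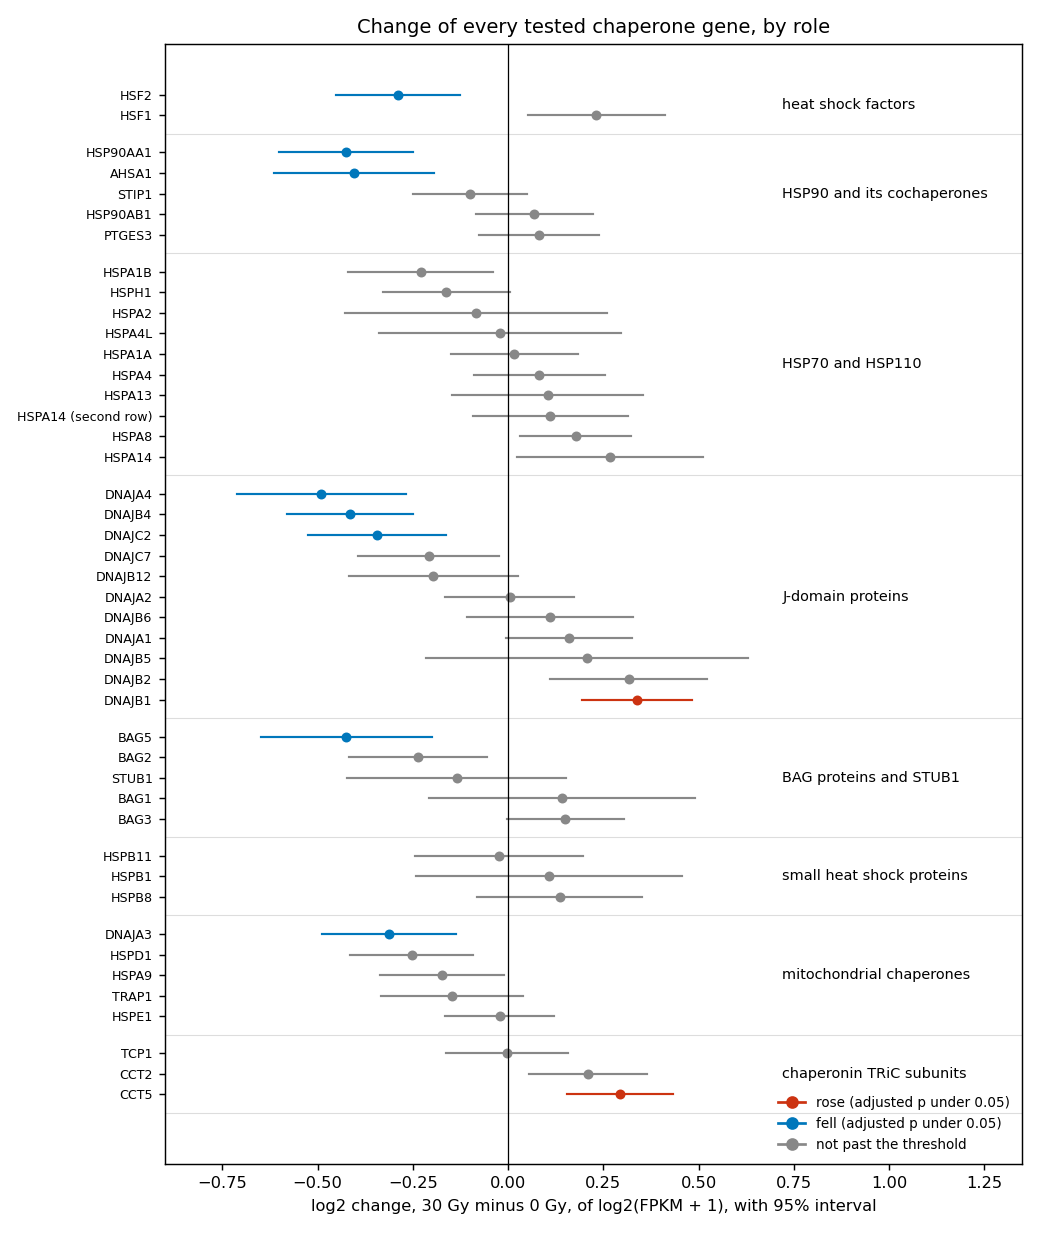
Log2 change (30 Gy minus 0 Gy, horizontal axis) of the 44 tested chaperone rows with its 95% interval, grouped by role, in red where a gene rose, in blue where it fell and in grey where it did not pass. The changes run from -0.49 (DNAJA4) to 0.34 (DNAJB1), and no gene of the HSP70 and HSP110 group passes.

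None of the 10 rows of the HSP70 and HSP110 group passed by limma, and 3 of them (HSPA8, HSPA1B and the first row of HSPA14) had an unadjusted p under 0.05. Over all tested genes, 5049 of 13379 had such a p. HSPA8, the constitutive cytosolic HSP70, stood at 281 and 285 FPKM at 0 Gy and at 316 and 324 at 30 Gy, higher without overlap, with a log2 change of 0.18 (95% interval 0.032 to 0.32; adjusted p = 0.0877). With voom HSPA8 passed (0.18, adjusted p = 0.0170). The stress-inducible pair HSPA1A and HSPA1B lie next to each other on chromosome 6, and their transcripts were 95.9% identical over 2304 aligned positions, so the split of reads between them is uncertain. HSPA1A stood at 38.0 and 35.5 FPKM and at 37.7 and 36.5, with overlap. HSPA1B stood at 24.6 and 27.1 FPKM and at 22.3 and 21.5, lower without overlap (adjusted p = 0.0896). Summed, the pair stood at 62.5 and 62.6 FPKM at 0 Gy and at 60.0 and 58.0 at 30 Gy. The ratio of this sum to HSPA8 was 0.223 and 0.220 at 0 Gy and 0.190 and 0.179 at 30 Gy, a log2 difference of -0.26 with an SD of 0.043 between libraries of a dose.

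The remaining HSP70 relatives were less abundant than HSPA8. HSPA4, an HSP110 protein that acts as an exchange factor, stood at 42.8 to 48.1 FPKM over the 4 libraries, and HSPH1, its relative HSP105, at 35.1 and 37.3 at 0 Gy and 31.6 and 32.9 at 30 Gy. HSPA13 stood at 27.5 to 33.7 FPKM. HSPA14, a ribosome-associated HSP70, stood at 6.498 and 7.36 FPKM and at 8.06 and 9.03 under its first identifier (ENSG00000187522), and at 4.42 and 4.77 and 4.95 and 5.13 under its second (ENSG00000284024). The 2 rows share 460 exonic bases on the same strand, so reads there have no certain owner. HSPA2, known from spermatogenesis, and HSPA4L were near the filter, at 1.11 to 1.66 FPKM.

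Of 11 J-domain proteins, which choose the client and start the ATPase of HSP70, 1 rose and 3 fell, beside 19.8% of all genes called; the mitochondrial DNAJA3 is given with its compartment. DNAJB1 (ENSG00000132002, 19:14514770-14529770, minus strand), also named HSP40, stood at 60.0 and 61.9 FPKM at 0 Gy and at 76.97 and 77.6 at 30 Gy. The values within a dose lay close together, and both 30 Gy libraries were higher. DNAJB1 rose 1.27-fold, by 0.34 ± 0.056 (SE, log2; adjusted p = 0.0194). Within a library, the ratio of DNAJB1 to HSPA8 was 0.213 and 0.217 at 0 Gy and 0.244 and 0.240 at 30 Gy, a log2 difference of 0.17 with an SD of 0.017 between libraries of a dose. TECR, on the opposite strand, overlaps 5.75% of the exonic bases of DNAJB1 and rose too, by 0.39, from a lower level (mean 19.1 FPKM against 69.1), and its part in the reads of DNAJB1 was not tested.

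The J-domain gene with the largest change was DNAJA4 (ENSG00000140403, 15:78264086-78282196, plus strand), at 10.9 and 11.7 FPKM at 0 Gy and 8.24 and 7.30 at 30 Gy. It fell 1.46-fold, by 0.49 ± 0.086 (SE, log2; adjusted p = 0.0229). DNAJB4 (ENSG00000162616, 1:77979175-78017964, plus strand), a close relative of DNAJB1, stood at 27.3 and 27.9 FPKM and at 19.8 and 21.1. DNAJB4 fell by 0.42 ± 0.065 (adjusted p = 0.0170), opposite in direction to DNAJB1. DNAJC2 (ENSG00000105821, 7:103312474-103344873, minus strand), which works with HSPA14 on nascent chains at the ribosome, stood at 6.77 and 6.86 FPKM and at 5.09 and 5.23. It fell by 0.34 ± 0.070 (adjusted p = 0.0315), while the 2 rows of its partner HSPA14 had values of 0.27 and 0.11 that did not pass. PMPCB, on the opposite strand, overlaps 9.57% of the exonic bases of DNAJC2 and was the more abundant (mean 12.6 FPKM against 5.99), with a log2 change of 0.14 that did not pass.

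The other 7 J-domain genes did not pass. DNAJA1, the most abundant, stood at 106 and 106 FPKM at 0 Gy and at 114 and 123 at 30 Gy (adjusted p = 0.141). DNAJB2, a form rich in neurons, stood at 8.72 and 8.77 FPKM and at 11.8 and 10.5, a change of 0.32 just outside the threshold (adjusted p = 0.0530). DNAJB6, which holds back aggregation of polyglutamine proteins, stood at 10.9 to 12.8 FPKM, DNAJA2 at 9.92 to 10.4 and DNAJB12 at 7.05 to 9.03. DNAJC7, which binds both HSP70 and HSP90, stood at 9.11 and 9.83 FPKM and at 8.01 and 8.11, and DNAJB5 at 0.989 to 1.65.

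**Figure D3:**
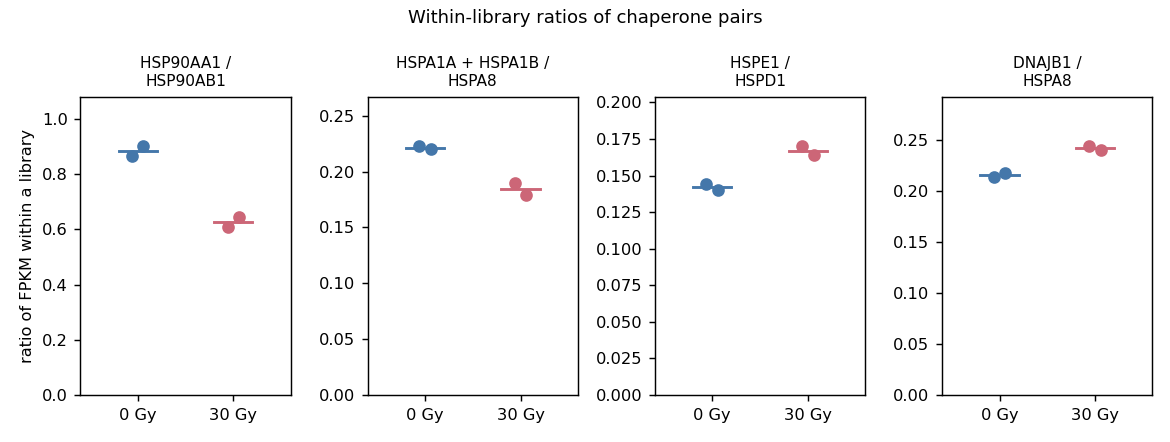
Ratio of FPKM within each library (points, with a line at the mean of each dose) for 4 pairs of chaperones, on vertical axes that start at 0. HSP90AA1 against HSP90AB1 is 0.864 and 0.901 at 0 Gy and 0.608 and 0.645 at 30 Gy, and the doses do not overlap in any of the 4 pairs. Taken singly, 65.2% of all tested genes did not overlap either.

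Of the BAG proteins, which release clients from HSP70, BAG5 (ENSG00000166170, 14:103556544-103562831, minus strand) fell. It stood at 13.2 and 14.5 FPKM at 0 Gy and at 9.47 and 10.6 at 30 Gy, and the change was -0.42 ± 0.088 (SE, log2; adjusted p = 0.0324). BAG3, the stress-induced member that couples HSP70 to small heat shock proteins and to selective autophagy, was the most abundant, at 45.3 and 44.4 FPKM and at 48.6 and 51.1 (adjusted p = 0.140). HSPB8, the small heat shock protein that works with BAG3, stood at 15.8 and 14.8 FPKM and at 18.0 and 15.9 (adjusted p = 0.303). BAG2, an inhibitor of STUB1, stood at 12.0 and 12.8 FPKM and at 10.1 and 10.6 (adjusted p = 0.0761), and RAB23 on the opposite strand overlaps 42.7% of its exonic bases. STUB1, the ubiquitin ligase CHIP, which marks clients of HSP70 and HSP90 for the proteasome, stood at 21.4 and 20.2 FPKM and at 20.9 and 16.9, with overlap. JMJD8 on the opposite strand covers 42.4% of the exonic bases of STUB1, at a mean of 6.32 FPKM against 19.9. BAG1 stood at 4.65 to 6.31 FPKM. HSPB1, the small heat shock protein HSP27, was abundant, at 264 and 203 FPKM at 0 Gy and 240 and 260 at 30 Gy, and the 2 libraries at 0 Gy spanned both values at 30 Gy. HSPB11 stood at 10.3 to 11.5 FPKM.

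The 5 mitochondrial chaperones all had values below 0, from -0.31 to -0.022, with 1 past the threshold; with trimmed-mean (TMM) scaling the value of HSPE1 was 0.0013. DNAJA3 (ENSG00000103423, 16:4425805-4456775, plus strand), the J-domain partner of mitochondrial HSP70, stood at 11.8 and 11.3 FPKM at 0 Gy and at 8.85 and 9.30 at 30 Gy. DNAJA3 fell by 0.31 ± 0.069 (SE, log2; adjusted p = 0.0376). HSPD1, the chaperonin HSP60, stood at 343 and 351 FPKM and at 283 and 300, lower without overlap, and lay at the edge of the threshold with a change of -0.25 (95% interval -0.41 to -0.092; adjusted p = 0.0501). HSPE1, which forms the lid of the HSP60 ring and starts beside HSPD1 on the other strand, stood at 49.4 and 49.3 FPKM and at 48.0 and 49.2. The ratio of HSPE1 to HSPD1 was 0.144 and 0.140 at 0 Gy and 0.170 and 0.164 at 30 Gy, a log2 difference of 0.23 with an SD of 0.032 between libraries of a dose. HSPD1 and HSPE1 share 281 exonic bases on opposite strands, 14.2% of those of HSPE1. HSPA9, mitochondrial HSP70 or mortalin, stood at 46.7 and 44.02 FPKM and at 39.4 and 40.9 (adjusted p = 0.118), and TRAP1, the mitochondrial HSP90, at 15.7 and 17.3 and at 14.7 and 14.8 (adjusted p = 0.208). DNASE1 on the opposite strand covers 29.3% of the exonic bases of TRAP1, at a mean of 0.657 FPKM. The summed level of the 5 was 470 ± 4.65 FPKM in the 0 Gy libraries and 404 ± 14.7 in the 30 Gy libraries (SD, n = 2 each), a sum that HSPD1 dominates.

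The chaperonin TRiC, a double ring that folds actin and tubulin, had 3 subunits on the list. CCT5 (ENSG00000150753, 5:10249921-10266412, plus strand) stood at 69.3 and 69.9 FPKM at 0 Gy and at 85.6 and 85.5 at 30 Gy. Replicates were nearly equal at both doses, and CCT5 rose 1.23-fold, by 0.29 ± 0.054 (SE, log2; adjusted p = 0.0250). CCT2 stood at 68.4 and 65.6 FPKM and at 76.0 and 79.4, higher without overlap (adjusted p = 0.0700). TCP1, the subunit that gave the complex its name, stood at 87.3 and 88.4 FPKM and at 84.7 and 90.7, with overlap. The 5 further ring subunits CCT3, CCT4, CCT6A, CCT7 and CCT8 had log2 changes from -0.11 to 0.072, and none passed.

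Across the list, 33 of the 44 chaperone rows (75.0%) had no overlap between doses, 19 lower and 14 higher at 30 Gy, beside 65.2% of all tested genes. The summed level of the 45 rows was 3448 and 3406 FPKM at 0 Gy and 3253 and 3390 at 30 Gy.

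Of the 8 genes that fell, 3 lie on the long arm of chromosome 14: AHSA1, HSP90AA1 and BAG5. Other genes of this chromosome were lower too. Of 431 further tested genes there, 76 fell (17.6%) and 18 rose (4.18%), and their median log2 change of -0.16 was the second lowest of 23 chromosomes. Within 2 Mb on either side of HSP90AA1, 11 of 35 tested genes fell and 2 rose, with a median of -0.21, beside -0.42 for HSP90AA1. Around AHSA1, 5 of 21 fell and 1 rose, with a median of -0.26 beside -0.40. Around BAG5, in a window that overlaps that of HSP90AA1, 18 of 56 fell and 2 rose, with a median of -0.26 beside -0.42. The part of the chromosome in these 3 falls was not tested. HSPA2, the fourth chaperone gene of chromosome 14, had a log2 change of -0.085 that did not pass, while its 18 tested neighbours had a median of -0.35.

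The neighbours of the other genes that passed had medians closer to 0 or on the other side of it, apart from CCT5. Medians of the neighbours were 0.15 around HSF2 (7 genes), -0.025 around DNAJA4 (26 genes), 0.0088 around DNAJB4 (16 genes), -0.012 around DNAJC2 (23 genes), 0.028 around DNAJA3 (55 genes) and 0.078 around DNAJB1 (66 genes). Around CCT5 only 6 tested genes lay within 2 Mb, with a median of 0.20, and none of them passed. Of 623 further tested genes of its chromosome 5, 118 rose (18.9%) and 26 fell (4.17%). Their median log2 change of 0.12 ranked number 22 of 23 chromosomes, counted from the lowest. The part of the chromosome in the rise of CCT5 was not tested.

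**Figure D4:**
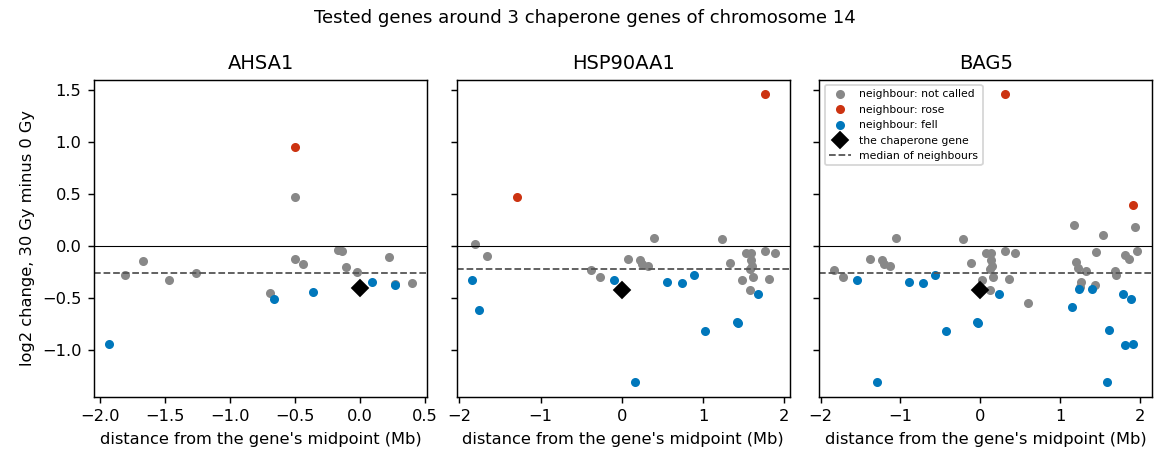
Log2 change (30 Gy minus 0 Gy, vertical axis) of tested genes within 2 Mb of AHSA1, HSP90AA1 and BAG5 on chromosome 14, by distance in Mb from the midpoint of the gene; the black diamond is the chaperone gene and the dashed line the median of its neighbours. The medians lie at -0.26, -0.21 and -0.26, below 0 and above the diamonds at -0.40, -0.42 and -0.42.

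Beyond the 44 names, 104 further genes of the chaperone network were listed by function, of which 83 were tested. Of these 9 rose and 11 fell, 24.1% called beside 19.8% of all genes, with a median log2 change of -0.014. Without either 0 Gy library 0 of them passed, without the first 30 Gy library 2 rose and 2 fell, and without the second 3 rose and 1 fell. Of 14 HSP90 partners 2 rose and 1 fell: TOMM34, a cytosolic partner of mitochondrial import, from 29.8 ± 0.121 to 42.2 ± 0.606 FPKM (SD, n = 2 each, as for the values that follow), PPP5C, the phosphatase that binds HSP90, from 7.52 ± 0.0611 to 9.88 ± 0.548, and AHSA2P, a relative of AHSA1, from 8.80 ± 0.0244 down to 6.63 ± 0.378. Of 10 HSP70 relatives, exchange factors and adaptors 0 rose and 3 fell, with a list median of -0.17. GRPEL1 and GRPEL2, the exchange factors of mitochondrial HSP70, fell, from 18.5 ± 2.40 to 12.35 ± 1.01 FPKM and from 7.43 ± 0.207 to 5.41 ± 0.0535. The third fall, ST13, the HSP70 cochaperone HIP, lies outside the naming rule and is named after its values were seen (77.3 ± 1.78 and 65.5 ± 0.226).

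Of 25 further J-domain genes 2 rose and 3 fell, a share close to the 19.8% called among all genes. DNAJC30 rose from 3.52 ± 0.256 to 5.11 ± 0.316 FPKM. DNAJC24 fell from 3.67 ± 0.0581 to 2.19 ± 0.169 and DNAJC6, auxilin, from 3.08 ± 0.240 to 1.92 ± 0.266. The third fall, GAK, a relative of auxilin, is likewise named after its values were seen (10.5 ± 0.229 and 8.13 ± 0.00838). Of 10 mitochondrial proteases and import or disaggregation factors 1 rose and 2 fell, beside the same 19.8% of all genes. PITRM1, which degrades presequences, rose from 19.2 ± 0.443 to 30.3 ± 1.13 FPKM, while LONP1, the matrix protease, fell from 38.4 ± 1.148 to 29.2 ± 0.905 and TIMM44, which anchors HSPA9 to the import pore, from 12.1 ± 0.664 to 8.47 ± 0.723.

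Of 14 further chaperonin and prefoldin genes 2 rose and 0 fell, 14.3% called beside 19.8% of all genes. The 2 were the prefoldin subunits PFDN1, from 21.3 ± 0.236 to 29.1 ± 0.998 FPKM, and VBP1, from 95.2 ± 1.17 to 115 ± 5.17. Of 10 tested genes among other heat shock factors and known targets or regulators of HSF1, 2 rose and 2 fell (40.0% called). UBB, a polyubiquitin gene, rose from 93.8 ± 3.004 to 135 ± 9.30 FPKM and DEDD2 from 5.58 ± 0.392 to 8.56 ± 0.519. IER5, an immediate early protein that activates HSF1, fell from 49.4 ± 1.17 to 25.9 ± 3.11, and CLU, the secreted chaperone clusterin, from 73.4 ± 3.52 to 52.1 ± 3.04. None of the 7 small heat shock genes outside the 44 names reached the filter. HSPA6, an HSP70 gene that is nearly silent without heat stress, stood at 0.273 to 0.451 FPKM in the 4 libraries and was not tested.

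**Figure D5:**
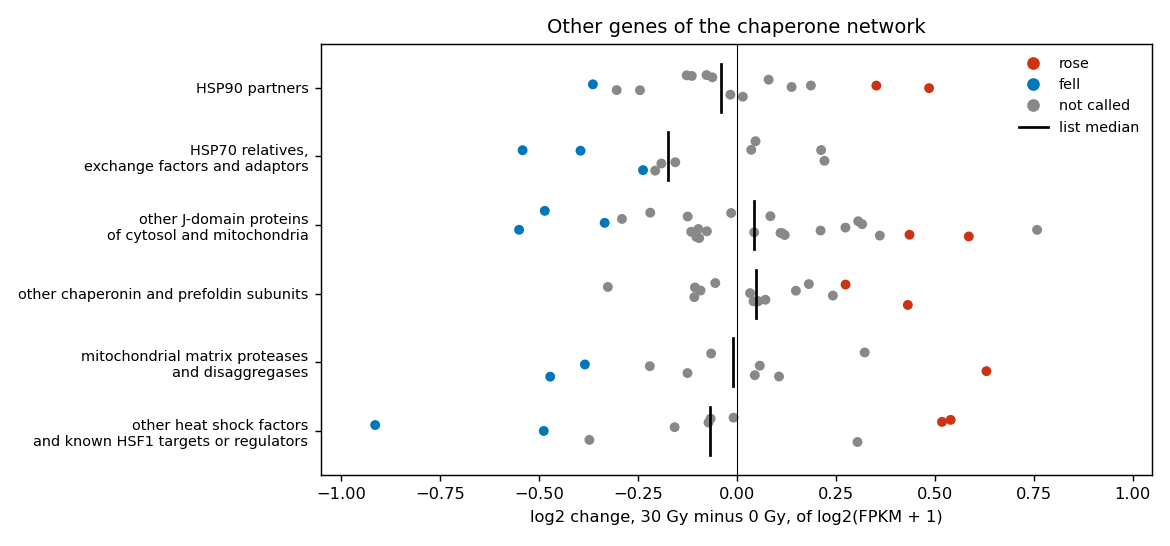
Log2 change (30 Gy minus 0 Gy, horizontal axis) of the 83 tested partner genes in 6 lists, with a point for each gene coloured by its call and a black line at each list's median; the vertical scatter within a list has no meaning. Rises and falls occur in most lists, the falls alone in the HSP70 list (0 rose, 3 fell) and the rises alone in the chaperonin and prefoldin list (2 rose, 0 fell). Over all tested genes 10.8% rose and 9.06% fell. Lists of 10 and 14 tested genes are therefore too short to read a direction from a count of 0.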

How the data were processed

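RNA of 4 libraries (2 at 0 Gy, 2 at 30 Gy) was extracted with Trizol and sequenced from Illumina libraries, per the labels' protocols. The authors deposited FPKM for 58735 genes, with hg38 as the build in the submitters' processing notes. No aligner, counter or annotation release is stated in the labels. All identifiers and names matched GENCODE release 29. Dividing FPKM times length by its smallest step in each library returned whole reads for 100% of values (tolerance 0.001). A gene's length equalled the union of its annotated exons for the 23 chaperone rows where this was checked.

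Genes reaching FPKM 1 in 2 or more libraries were fitted with limma 3.58.1 (R 4.3.3), using eBayes with a trend and log2(FPKM + 1) of the deposited values, without scaling or covariates, on all 13379 genes, with Benjamini-Hochberg adjustment at 0.05. This scale understates changes of low genes. The fit had 2 residual and 2.98 prior degrees of freedom. The members and lists were chosen with earlier results of these data known. Each member past the threshold, the most abundant of each role, both heat shock factors and the genes of each ratio are named with full values, the others more briefly, and from each partner list up to 2 rises and 2 falls past the threshold. The fit was run on simulated data whose planted changes were all larger than those of the chaperone genes. That run therefore says nothing about the power for changes as small as theirs. Pseudocount, filter, scaling, variance model, replicate block and each library left out were varied; voom on the recovered reads was added after the data were seen. 1 partner gene that passed is not reported here.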

Additional observations from a re-analysis of the deposited data

How the results depend on the processing

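Pseudocount 0.1, quantile normalization, median centring, TMM scaling and a filter at FPKM 5 kept all 10 chaperone calls; TMM scaling and the filter at 5 added DNAJB2, and median centring and the filter at 5 added HSPD1. Without a filter 0 chaperones rose and 0 fell, of 604 genes called in all, and 3 partner genes rose and 0 fell. eBayes without trend left 1 rise (DNAJB1) and 4 falls (HSP90AA1, DNAJA4, DNAJB4, DNAJC2). With the replicate block 1 rise (DNAJB1) and 4 falls (HSP90AA1, DNAJA4, DNAJB4, BAG5) passed among chaperones and 6 falls among partners. Whether same-numbered libraries belong together is not stated. Their deviations had a Pearson's r of -0.026 across genes, which cannot settle it, since a shared batch could act on some genes only. voom on the recovered reads, added after the data were seen, called 4194 genes (31.3%), with 6 chaperone rises, 11 falls and 14 partner rises, all 10 reported calls among them; it replaced a planned quasi-likelihood count test, which was not run. Leaving out each library gave 0 chaperone rises and 0 falls, 0 to 898 genes in all, 0 to 3 partner rises and 0 to 2 partner falls, with fewer samples in each fit and the lone library of a group assumed to vary like the other group. The median change of the chaperones moved from -0.012 to 0.011 with TMM scaling. Values near 0 changed sign. HSPA1A stood at -0.0017 with median centring, -0.020 with quantile normalization and, without 1 library, between -0.032 and 0.064. HSPB1 ranged from -0.079 without the second 0 Gy library to 0.30, and HSPE1 was 0.0013 with TMM scaling. TCP1 was 0.020 with TMM scaling, 0.0036 with voom and, without 1 library, between -0.051 and 0.045. The cause of these changes was not tested.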
